A study of Mus musculus with 16 samples.

Results

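The genes described here encode the DNA replication fork machinery, the proteins that unwind, prime, copy and seal DNA in S phase. They were taken by name from the gene tables of 3 RNA-seq experiments on *Cul4b* knockout mouse intestine. All 36 genes were found in every table, among 52636 genes in the crypt and KO-CAG organoid tables and 54532 in the KO-IEC organoid table, of which 52525 were in all 3. All 36 passed the filter on low counts in each experiment.

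Before S phase the ring-shaped MCM helicase is loaded onto DNA as an inactive complex. Cdc45 and the GINS complex join it to form the active helicase, primase with DNA polymerase alpha lays down short primers, and DNA polymerases epsilon and delta extend them while held by the PCNA clamp, which the RFC complex loads. RPA coats exposed single strands, Fen1, Dna2 and RNase H2 remove primer RNA, and Lig1 seals the nicks. In the small intestine these genes are used mainly by dividing crypt cells, and their messenger RNAs fall as the cells leave the crypt and differentiate. Cul4b is the scaffold of a ubiquitin ligase complex, CRL4B.

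Whole crypts were isolated from the small intestine of C57BL/6 mice with Cre driven by the villin promoter in the intestinal epithelium (pVillin-Cre; Cul4b fn/Y, abbreviated KO-IEC, 4 libraries) and of Cul4b fn/Y controls without Cre (WT, 4 libraries). Organoids grown in Matrigel from crypts of the same pair of genotypes gave 2 KO-IEC and 2 WT libraries, and organoids with a tamoxifen-inducible Cre under the ubiquitous CAG promoter (CAG-CreERT2; Cul4b fn/Y, abbreviated KO-CAG) gave 2 KO and 2 WT libraries. The Cre of the latter is activated in culture by 4-hydroxytamoxifen. The libraries of a group are described as biological replicates. Mice aged 8 to 16 weeks served in most of the experiments, and the age behind these libraries is not stated separately. Whether the WT organoids of the KO-CAG experiment carried CreERT2 or received the drug is not given in the sources used here. The crypt libraries held 9311734 to 13479974 counts, the KO-IEC organoid libraries 15006730 to 16881395, and the KO-CAG organoid libraries 7348191 to 10462275.

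*Cul4b*, the deleted gene (chrX:38533274-38576196 in the gene tables), was low in every library labelled KO. In crypts it stood at 31.7, 33.2, 38.3 and 32.3 CPM (read counts relative to the library total as scaled by edgeR's TMM factors) in WT and at 1.69, 0.993, 0.848 and 2.21 CPM in KO. In KO-IEC organoids it was 83.2 and 73.2 CPM in WT and 1.69 and 1.76 CPM in KO, and in KO-CAG organoids 72.9 and 70.1 CPM against 3.34 and 5.19 CPM. The fall passed in each experiment by edgeR (quasi-likelihood F-test, Benjamini-Hochberg adjustment) (adjusted p = 0.000169, 0.0311 and 1.93e-06), and WT and KO libraries did not overlap in any of the 3.

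Some libraries stood apart in other ways. In the KO-IEC organoid experiment, *Xist*, the RNA that coats the inactive X chromosome of females, reached 521 CPM in the second WT library and 442 CPM in the second KO library (replicates 2), but 1 count in each of the replicates numbered 1. The Y-linked gene *Eif2s3y* had 1203 and 833 counts in the replicates numbered 1 and 0 counts in both replicates numbered 2, which at this depth allows up to 0.199 CPM in WT and 0.203 CPM in KO. These 2 libraries therefore go against the Y chromosome in the genotype Cul4b fn/Y, while *Xist* stayed at or under 21 counts in the other libraries. Among the crypt libraries, the mitochondrial ribosomal RNAs *mt-Rnr1* and *mt-Rnr2* summed to 18.6 to 27.6 CPM in WT replicate 1 and in KO replicates 1, 2 and 3, to 833 and 1107 CPM in WT replicate 4 and KO replicate 4, and to 2740.4 and 2737 CPM in WT replicates 2 and 3. For this reason each main count is also given without single libraries.

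Levels between genes were compared per length, in TPM (counts scaled for gene length and library total), from the gene lengths in the tables. In WT crypts the levels ran from 6.27 ± 1.69 TPM for *Gins3* to 222 ± 26.7 TPM for *Pcna* (SD, n = 4). *Pcna* was also the highest of the genes in the WT organoids of both experiments, at 319 ± 2.31 and 359.5 ± 6.61 TPM (SD, n = 2 each). *Pold2*, a small subunit of DNA polymerase delta, and *Rnaseh2c*, a subunit of RNase H2, followed in crypts at 144 ± 15.7 and 157 ± 23.4 TPM, a difference within their spread. The 6 ring subunits *Mcm2* to *Mcm7* were not level with each other in crypts, with *Mcm2* lowest at 35.8 ± 5.73 TPM and *Mcm6* highest at 90.4 ± 14.02 TPM. *Fen1* was among the lowest in each experiment (7.83 ± 2.47 TPM in WT crypts), but 84.2% of its exon bases are shared with the neighbouring genes *Tmem258* and *Gm10143* in the GENCODE M21 annotation, and the strand setting of the counting is not given.

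**Figure D1:**
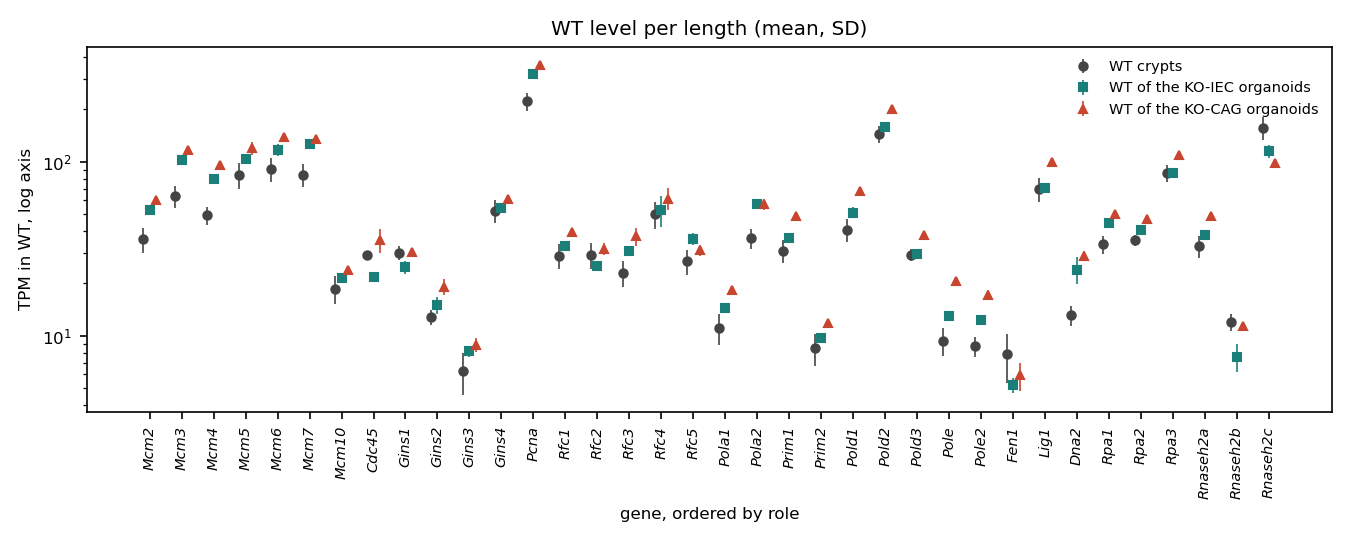
Level of each of the 36 fork genes in WT libraries as TPM on a log axis, with points for the mean and bars for the SD (n = 4 for crypts, n = 2 for each organoid experiment). Pcna is the highest gene in all 3 sets, and Gins3 and Fen1 are the lowest pair in crypts.

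In crypts, all 36 genes had a lower fitted level in KO than in WT, with log2 fold changes from -0.79 to -0.04 (median -0.43). Of all 13427 genes tested, 51.1% had a lower fitted level, and their median was -0.01. Of the 36 genes, 6 fell at an adjusted p under 0.05 and 0 rose, where 2.66% of all genes tested fell and 4.3% rose. These were *Gins1*, *Gins2*, *Gins4*, *Rfc2*, *Rnaseh2a* and *Rnaseh2c*, and none of them reached a 2-fold fall, as 0.343% of all genes did. At an unadjusted p under 0.05, 20 of 36 were lower, against 14.6% of all genes. Every KO library lay below every WT library in 10 of 36, against 8.79% of all genes. In bulk samples of this kind, fewer dividing cells and less of these RNAs per cell cannot be told apart.

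Of the 6 genes, 3 belong to GINS, the 4-subunit complex that joins the MCM ring to Cdc45. *Gins1* was at 19.3, 18.9, 21.0 and 18.2 CPM in WT crypts and 11.9, 13.2, 8.48 and 12.8 CPM in KO crypts, with KO replicate 3 the lowest. Its log2 fold change was -0.73 ± 0.15 (SE) with an adjusted p of 0.0413 by edgeR. *Gins2* was at 21.5, 23.0, 23.8 and 20.7 CPM in WT and 15.96, 12.9, 8.17 and 14.4 CPM in KO (log2 fold change -0.79 ± 0.19, adjusted p = 0.0460 by edgeR). The groups did not overlap for either gene. *Gins4* was at 28.3, 34.0, 31.2 and 26.4 CPM in WT, and its 4 KO values were close together at 22.6, 21.8, 21.1 and 21.97 CPM (log2 fold change -0.46 ± 0.10, adjusted p = 0.0455 by edgeR). The fourth subunit, *Gins3*, had the lowest level of the complex and a log2 fold change of -0.18 ± 0.21 with an adjusted p of 0.587, and its KO libraries overlapped WT. The exons of *Gins2* share 67.3% of their bases with *Gse1* on the other strand. Its count may be affected by this overlap, in a direction that depends on counting settings not given here.

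RNase H2 removes RNA that is paired to DNA, including ribonucleotides left in the new strand. Its catalytic subunit *Rnaseh2a* was at 54.5, 46.9, 52.3 and 42.2 CPM in WT crypts and 32.9, 24.9, 23.5 and 33.1 CPM in KO crypts, and had the smallest adjusted p of the 36 genes (log2 fold change -0.78 ± 0.14, adjusted p = 0.0383 by edgeR). *Rnaseh2c* was at 97.9, 102, 106 and 81.9 CPM in WT and 80.7, 61.5, 52.8 and 69.2 CPM in KO (log2 fold change -0.55 ± 0.14, adjusted p = 0.0493 by edgeR). The gap between groups was narrow here, with the highest KO library just below the lowest WT library. *Rnaseh2b*, the third subunit, had a log2 fold change of -0.58 ± 0.17 with an adjusted p of 0.0628, and its groups did not overlap either. Exons of *Rnaseh2a* share 14.7% of their bases with *Prdx2* and *Gm49661*, and those of *Rnaseh2c* share 24.8% with *Kat5*.

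Of the clamp and its loader, only *Rfc2*, a small subunit of the RFC complex, passed the test in crypts. It was at 80.8, 83.6, 83.6 and 63.5 CPM in WT and 63.4, 53.4, 44.3 and 57.4 CPM in KO (log2 fold change -0.51 ± 0.13, adjusted p = 0.0499 by edgeR). WT replicate 4 and KO replicate 1 almost met. *Pcna* itself was at 205, 244, 243 and 215 CPM in WT and 254, 211, 191 and 198 CPM in KO. The groups overlapped, with a KO library as the highest of the 8, and the log2 fold change was -0.09 ± 0.12 (adjusted p = 0.637 by edgeR). The exact two-sided permutation test gave p = 0.0286 for each of the 6 genes that passed, the smallest it allows with 4 against 4, and p = 0.429 for *Pcna*. Groups that do not overlap give this smallest value in any case, so it adds no support to the 6 calls.

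Among the remaining genes in crypts, the 6 ring subunits had log2 fold changes from -0.51 (*Mcm7*) to -0.30 (*Mcm4*) and none passed, with KO and WT overlapping for each. The 9 polymerase and primase subunits also gave 0 calls. *Pold1* and *Pold2*, the catalytic and a small subunit of polymerase delta, were nearest, at -0.53 ± 0.15 and -0.50 ± 0.13 with adjusted p of 0.0578 and 0.0531. *Pola1*, the catalytic subunit of polymerase alpha, was at -0.11 ± 0.21. *Rpa2*, the middle subunit of the single-strand binding complex, was at -0.65 ± 0.17 (adjusted p = 0.0531), and *Lig1* at -0.56 ± 0.18 (adjusted p = 0.0706).

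By role, the median log2 fold changes in crypts were -0.44 for the 12 helicase genes, -0.39 for the 6 clamp and loader genes, -0.40 for the 9 polymerase and primase genes, -0.37 for the 3 genes of flap removal and ligation, -0.29 for the 3 RPA genes and -0.58 for the 3 RNase H2 genes. In KO-CAG organoids they were -0.18, -0.13, -0.40, -0.25, -0.17 and -0.37 in the same order, and in KO-IEC organoids -0.76, -0.53, -0.59, -0.46, -0.65 and -0.55. The KO-IEC values rested on KO replicate 2, since the median over all 36 genes was -0.03 without it, and the KO-CAG median was -0.07 without KO replicate 1.

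**Figure D2:**
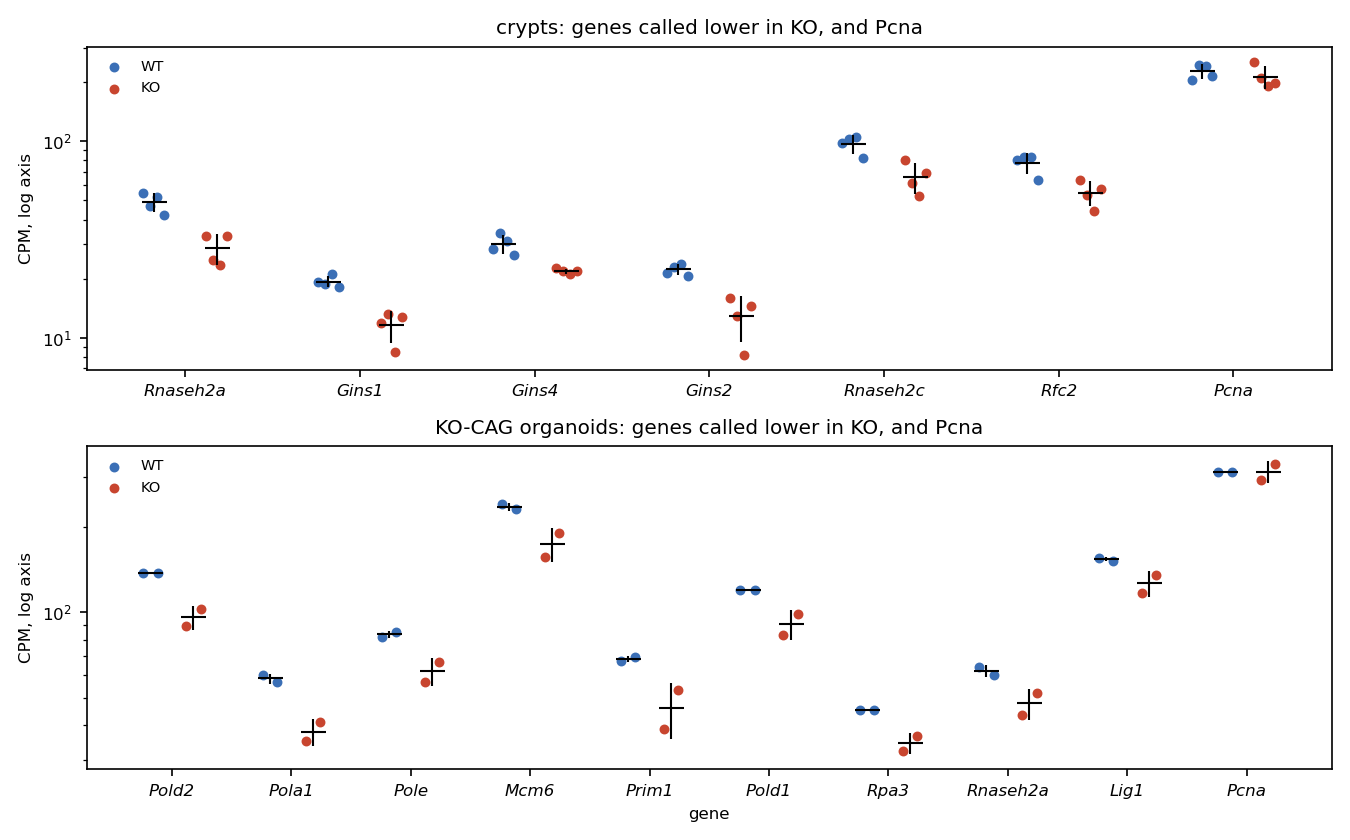
CPM on a log axis in each library for the genes that passed the test in crypts (top) and in KO-CAG organoids (bottom), with Pcna in each, WT in blue and KO in red; horizontal marks are means and vertical bars SDs (n = 4 per group in crypts, n = 2 in organoids). KO libraries lie below WT libraries for each gene that passed, whereas the groups overlap for Pcna.

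The fall in crypts was uneven between libraries. Taken as the median over the 36 genes of each library's log2 CPM minus the WT mean, KO replicates 1, 2, 3 and 4 stood at -0.04, -0.37, -0.76 and -0.48, and the WT replicates at -0.04, 0.13, 0.10 and -0.18. KO replicate 3 was the lowest of the 8 libraries for 31 of 36 genes, whereas KO replicate 1 was within the WT range by this median. The 6 calls rested on this set of libraries. Without KO replicate 1 there were 22 calls, in a fit that called 7.87% of all genes lower, and without WT replicate 4 there were 9, with 4.99% of all genes. Without KO replicate 4 there were 2, with 1.41% of all genes, and without any one of WT replicates 1, 2 and 3 or KO replicates 2 and 3 there were 0, fits in which 1 gene of the whole table was called lower. The median log2 fold change stayed between -0.58 and -0.30 over these 8 fits.

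Within the libraries of low mitochondrial ribosomal RNA (1 WT, 3 KO), 33 of 36 genes were lower in KO with a median difference of -0.35, and within the middle class (1 WT, 1 KO) 35 of 36 were, also with a median of -0.35. Both classes had 1 WT library, so these differences have no replicate check. In the low class, KO replicate 1 alone was lower than WT replicate 1 for 16 of 36 genes, with a median difference of 0.04. The highest class held WT libraries only. With this class as a covariate the median log2 fold change was -0.32, with 0 calls among the 36 genes and 1 among all 13427.

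Markers of differentiated cells also varied between the crypt libraries. The 10 enterocyte markers, all tested, summed to 6860, 3569, 2272 and 10309 CPM in WT crypts and to 10067, 16255, 21267 and 20075 CPM in KO crypts, with *Apoa1* (an apolipoprotein) or *Anpep* (a brush border peptidase) as the most abundant, and none was at 0. KO replicate 1 was below WT replicate 4 in this sum. All 10 had a higher fitted level in KO (median 1.57 on the log2 scale), with 10 at an unadjusted p under 0.05, where 17.4% of all genes were higher at that threshold, and 0 past the adjusted threshold by edgeR. The 8 stem cell markers all had a lower fitted level, against 51.1% of all genes, with a median of -0.47, and 3 of them fell (*Lgr5*, *Ascl2* and *Cdca7*), where 2.66% of all genes did. The 8 Paneth cell markers summed to 2097 CPM in KO replicate 3 and to 8353 CPM or more in each other crypt library. Goblet cell markers summed to 12638 CPM in KO replicate 3 and to 9615 CPM or less in each other crypt library. Tuft cell markers summed to 203 CPM in KO replicate 4 and to 51.1 CPM or less in each other crypt library. No goblet or tuft marker passed the adjusted threshold by edgeR. With the mean of the enterocyte markers as a covariate, the median log2 fold change of the 36 genes was -0.03 with 0 calls, and 1 gene of all 13427 was called lower. Genotype and the enterocyte markers move together in these 8 libraries and cannot be told apart. Immune markers summed to 104 CPM in KO replicate 3, 73.4 CPM in KO replicate 4 and 63.1 CPM or less in each other crypt library. Stromal markers summed to at most 16.6 CPM in the crypt libraries. Beyond the fit with the enterocyte covariate, the part of these markers in the result was not tested.

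**Figure D3:**
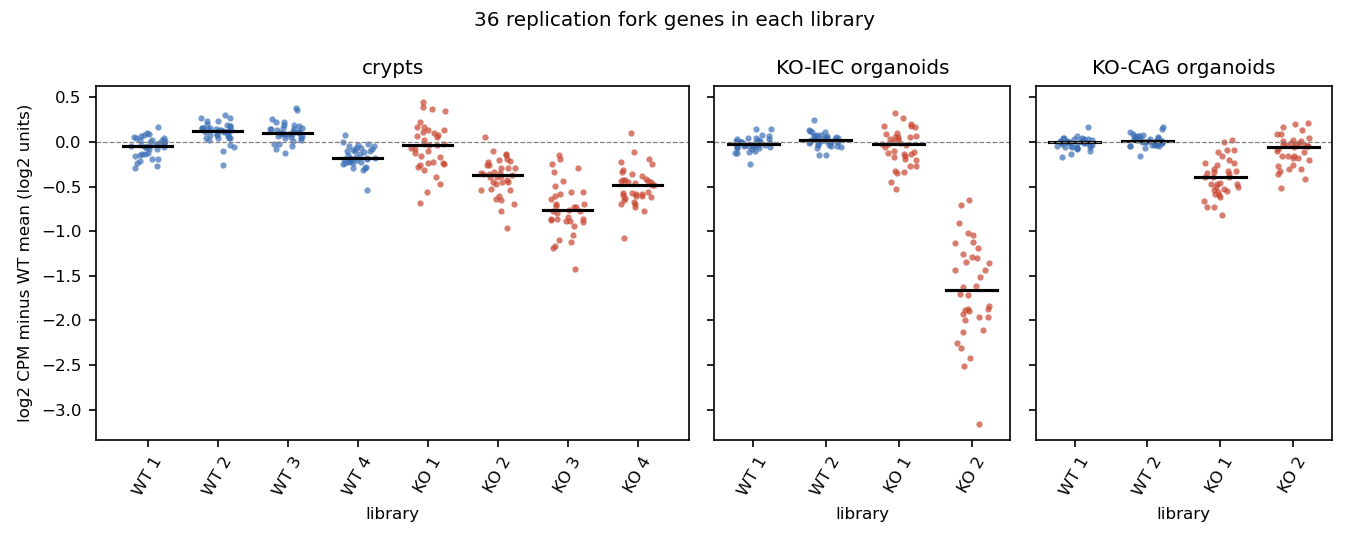
Log2 CPM minus the WT mean of its experiment for each of the 36 genes (points) in each library, with the median as a bar, WT in blue and KO in red. KO replicate 3 of the crypts (-0.76), KO replicate 2 of the KO-IEC organoids (-1.66) and KO replicate 1 of the KO-CAG organoids (-0.39) are the lowest libraries of their experiments.

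In KO-IEC organoids, all 36 genes again had a lower fitted level in KO, against 51.2% of all genes tested. Their log2 fold changes ran from -1.17 (*Gins1*) to -0.18 (*Pola2*), with -0.59 as the median. No gene of the 36 passed by edgeR, where 0.00717% of all 13938 genes tested were called lower, and DESeq2 also gave 0. At an unadjusted p under 0.05 there was 1 of 36, against 2.07% of all genes. The 2 KO libraries lay below both WT libraries in 17 of 36, against 19.4% of all genes.

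The experiment rested on 1 library. KO replicate 2 was the lowest of the 4 for 36 of 36 genes, at a median of -1.66, with *Gins1* at -3.15 and *Rnaseh2c* at -0.65 as its extremes. KO replicate 1 was at a median of -0.03, beside the WT libraries at -0.02 and 0.02, and below both of them for 17 of 36 genes. Without KO replicate 2 the median log2 fold change was -0.03 with 0 calls, and without KO replicate 1 it was -1.69 with 36 calls, a fit that called 9.16% of all genes lower and in which the lone KO library is assumed to vary like the WT pair. KO replicate 2 is also the KO library with *Xist*. Set against the WT library of its own number, which matched it in *Xist*, KO replicate 2 was lower for 36 of 36 genes with a median difference of -1.76, whereas KO replicate 1 was lower than WT replicate 1 for 17 of 36 with a median of 0.01. With 1 library on each side these differences have no replicate check.

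*Rnaseh2c* had the smallest unadjusted p of the 36 genes here. It was at 55.3 and 66.0 CPM in WT and 44.0 and 38.6 CPM in KO (log2 fold change -0.55 ± 0.18, unadjusted p = 0.0302 and adjusted p = 0.856 by edgeR). *Rfc3*, a small subunit of the clamp loader, was at 39.04 and 41.7 CPM in WT and 28.0 and 12.3 CPM in KO. *Rpa3*, the small subunit of RPA, was at 35.1 and 35.7 CPM in WT and 28.1 and 17.1 CPM in KO. For both genes the groups did not overlap, and the log2 fold changes were -1.001 ± 0.42 and -0.65 ± 0.29 with an adjusted p of 0.856 by edgeR. *Pcna* was at 272 and 284 CPM in WT and 255 and 137 CPM in KO (log2 fold change -0.50 ± 0.32, adjusted p = 0.856 by edgeR). *Gins1*, which had the lowest fitted value, was at 14.05 and 13.2 CPM in WT and at 10.7 and 1.42 CPM in KO.

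The same library was low or high in other lists. The stem cell markers summed to 3514 and 4946 CPM in WT and to 2297 and 613 CPM in KO. Goblet cell markers summed to 7034 CPM in KO replicate 2, with *Fcgbp* at 5469 CPM as the most abundant, and to 1780, 2093 and 1872 CPM in the other 3 libraries. Enterocyte markers summed to 6831 and 11723 CPM in WT and 5014 and 15105 CPM in KO. *Mki67*, a protein of dividing cells, was at 313 and 345 CPM in WT and 415 and 185 CPM in KO. The part of these lists in the result was not tested.

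In KO-CAG organoids the fitted level was lower in KO for 31 of 36 genes, against 49.9% of all genes, with log2 fold changes from -0.62 to 0.11 (median -0.22). Of the 36 genes, 9 fell and 0 rose, where 13.4% of all 13598 genes tested fell and 18.1% rose. The KO libraries lay below both WT libraries in 20 of 36, against 34.2% of all genes. None of the 9 reached a 2-fold fall, as 2.24% of all genes did. The genes that fell were *Pold2*, *Pola1*, *Pole*, *Mcm6*, *Prim1*, *Pold1*, *Rpa3*, *Rnaseh2a* and *Lig1*, and 5 of them encode polymerase or primase subunits.

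*Pola1*, the catalytic subunit of polymerase alpha, was at 60.1 and 56.8 CPM in WT and 35.03 and 40.9 CPM in KO (log2 fold change -0.62 ± 0.11, adjusted p = 0.00211 by edgeR), the lowest fold change of the 36 genes. Its partner *Prim1*, the catalytic subunit of primase, was at 67.1 and 69.7 CPM in WT and 38.8 and 53.4 CPM in KO (log2 fold change -0.56 ± 0.13, adjusted p = 0.0109 by edgeR). The other subunits of that complex, *Prim2* and *Pola2*, gave -0.30 ± 0.16 and -0.0038 ± 0.10 and did not pass. *Pold2* was at 137 and 138 CPM in WT and 89.5 and 103 CPM in KO (log2 fold change -0.51 ± 0.09, adjusted p = 0.00186 by edgeR). *Pold1* was at 119.5 and 119.6 CPM against 83.1 and 98.8 CPM (-0.39 ± 0.10, adjusted p = 0.0117), and *Pole*, the catalytic subunit of polymerase epsilon, at 82.0 and 85.5 CPM against 57.0 and 66.8 CPM (-0.43 ± 0.10, adjusted p = 0.00843). For each of these 5 genes KO replicate 1 was the lowest library.

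Outside the polymerases, *Mcm6* fell from 241 and 231 CPM in WT to 157 and 191 CPM in KO (log2 fold change -0.43 ± 0.10, adjusted p = 0.00951 by edgeR), while the other 5 ring subunits ran from -0.21 to -0.09 and did not pass. *Rpa3* was at 45.2 and 45.1 CPM in WT and 32.4 and 36.6 CPM in KO (-0.38 ± 0.11, adjusted p = 0.0239). *Rnaseh2a* was at 64.2 and 59.99 CPM against 43.5 and 51.8 CPM (-0.37 ± 0.11, adjusted p = 0.0252), and *Lig1*, the ligase that joins Okazaki fragments, at 156 and 152 CPM against 117 and 136 CPM (-0.28 ± 0.09, adjusted p = 0.0396). *Rnaseh2a* was the 1 gene that passed in both crypts and KO-CAG organoids. *Pcna* was at 314 CPM in both WT libraries and 294 and 334 CPM in KO, on both sides of WT, with a log2 fold change of 0.0028 ± 0.09 (adjusted p = 0.985 by edgeR). *Gins1*, *Gins2* and *Gins4*, which passed in crypts, gave -0.16, -0.28 and 0.0065 here with an adjusted p of 0.211 or more by edgeR. With 2 libraries against 2 an exact permutation test cannot go below p = 0.333.

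KO replicate 1 of the KO-CAG organoids was the lowest of the 4 libraries for 34 of 36 genes, at a median of -0.39, and KO replicate 2 stood at -0.06. Without KO replicate 2 there were 26 calls, in a fit that called 16.8% of all genes lower and assumed the lone KO library to vary like the WT pair. Without KO replicate 1 there were 7, with 13.3% of all genes, and without WT replicate 1 or 2 there were 7 and 6, with 7.98% and 8.11%. When all 16 libraries entered 1 fit, with 1 shared estimate of spread, there were 0 calls, and 1.1% of all genes were called lower. The enterocyte markers summed to 5027 and 5396 CPM in WT and 14322 and 11382 CPM in KO, and 9 of the 10 rose. All 7 goblet and all 7 enteroendocrine markers rose, as did 7 of 8 Paneth markers, where 18.1% of all genes rose, while 4 of 8 stem cell markers fell, where 13.4% of all genes did. The mitochondrial ribosomal RNAs summed to 919 and 1009.6 CPM in WT and 1209.8 and 1313 CPM in KO, and both *mt-Rnr1* and *mt-Rnr2* rose, by 0.40 and 0.38 on the log2 scale (adjusted p = 0.00595 and 0.0218 by edgeR). The part of these lists in the result was not tested.

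**Figure D4:**
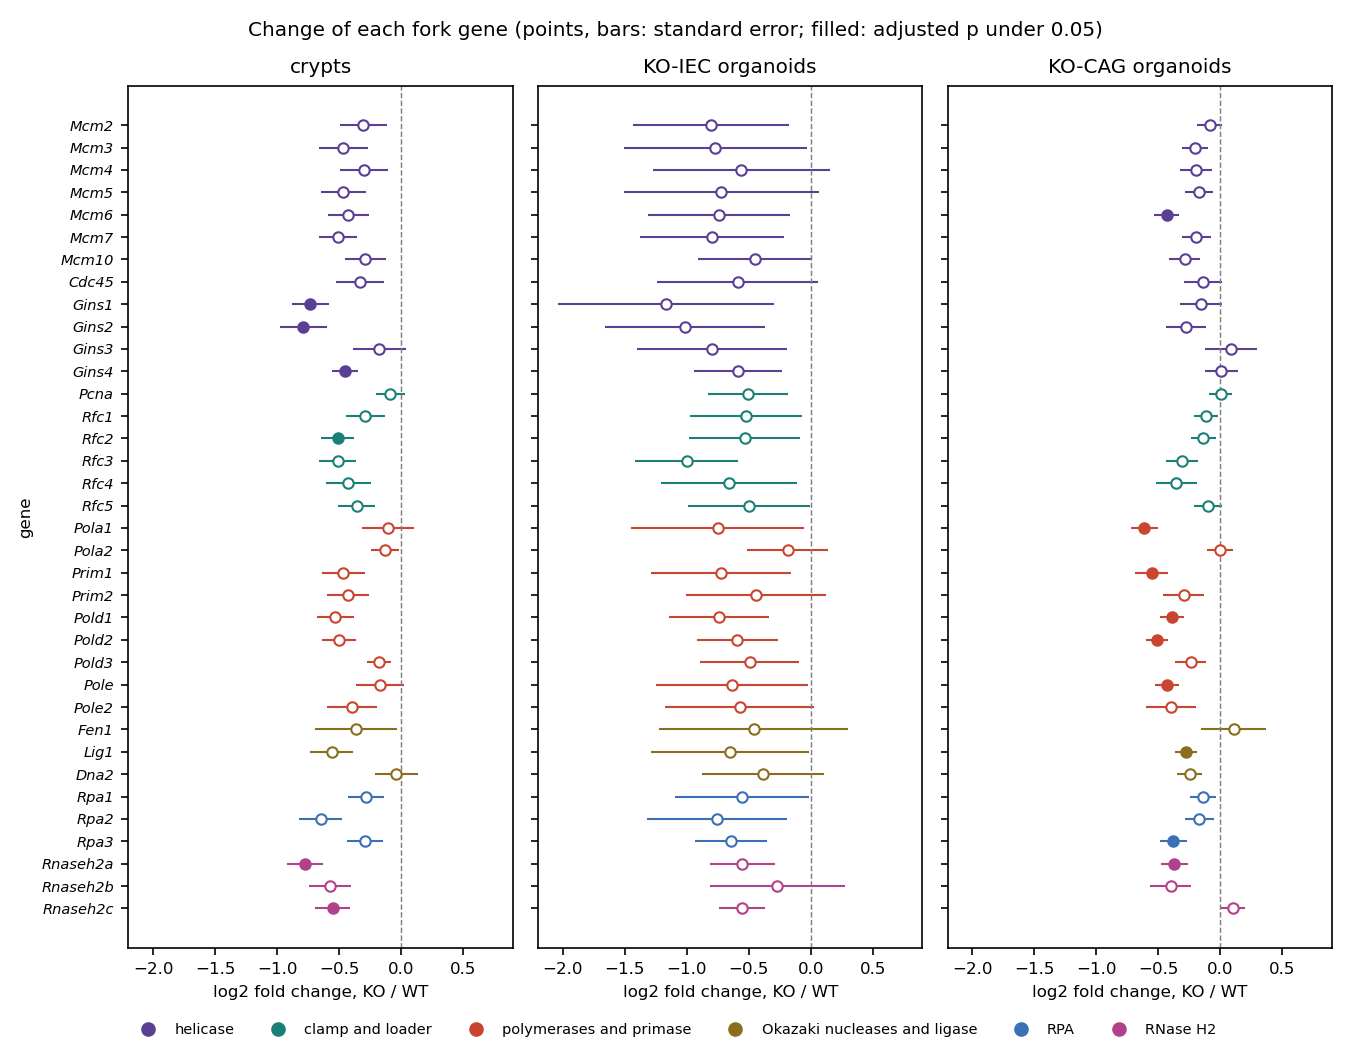
Log2 fold change of KO against WT for each of the 36 genes in the 3 experiments, coloured by role, with bars for the SE and filled points for an adjusted p under 0.05. Filled points are GINS, Rfc2 and RNase H2 genes in crypts (6) and mostly polymerase and primase genes in KO-CAG organoids (9), and KO-IEC organoids have none and wide bars.

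The difference between experiments was tested gene by gene in a fit over all 16 libraries and 15585 genes. Of the 108 tests on the 36 genes, 0 had an adjusted p under 0.05 by edgeR, where 0.237% and 0.135% of all genes had a higher and a lower effect in KO-CAG organoids than in crypts. Between the organoid experiments these shares were 0.199% and 0.186%, and 0.00642% had a lower effect in KO-IEC organoids than in crypts. The lowest adjusted p was 0.197, for *Rnaseh2c*, whose log2 fold change was higher by 0.64 ± 0.21 in KO-CAG organoids than in crypts. A gene that passed in 1 experiment alone was therefore not shown to differ in effect from the others.

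Promoter sequence was examined because E2F transcription factors are known to drive many S-phase genes. The 36 genes were picked by name as fork genes, so their shares of words describe this list and not its change in KO. RefSeq promoters (GRCm38.p6) were matched for 28 of the 36 genes, with 33 start sites. The words TTTCCCGC, TTTGGCGC, TTTGCCGC and TTTCGCGC, on either strand, were found in the 250 bases before the start in 6 of the 28 genes (*Mcm5*, *Mcm6*, *Mcm7*, *Gins3*, *Rfc3* and *Pola1*), or 18.2% of the 33 promoters against 1.86% of all 32851 promoters. Of the 14 genes that passed in at least 1 experiment, 9 had a promoter entry and 2 of these, *Mcm6* and *Pola1*, held a word, while 4 of the 19 promoter-matched genes that passed in none did. With the 50 bases after the start included, 11 of the 28 genes held a word, or 33.3% of the promoters against 2.26% of all, and so did 4 of the 9 and 7 of the 19 genes, with *Pold1* and *Lig1* added among those that passed. *Rnaseh2a*, which passed in 2 experiments, held none in either window. The word CCAAT was found in 18 of the 28 genes, or 57.6% of the 33 promoters against 33.8% of all. The 18 included all 8 matched helicase genes. GGGCGG was found in 19 of 28, or 60.6% of the 33 promoters against 32.7% of all. TTTGAA was found in 6 of 28, or 18.2% of the 33 promoters against 16% of all, which are close. All words were searched on both strands and may overlap. A match is a run of letters, and binding was not measured. The 250 bases before the start are shown for the ring subunits *Mcm6* and *Mcm5* and for *Pola1*, which hold words, and for *Mcm2*, a ring subunit that holds none, 5′ to 3′ with the words in capitals. They lie at chr1:128359706-128359955 (minus strand) for *Mcm6*, chr8:75109259-75109508 (plus strand) for *Mcm5*, chrX:93632156-93632405 (minus strand) for *Pola1* and chr6:88898781-88899030 (minus strand) for *Mcm2*, outside the transcribed spans given in the count tables.
Mcm6: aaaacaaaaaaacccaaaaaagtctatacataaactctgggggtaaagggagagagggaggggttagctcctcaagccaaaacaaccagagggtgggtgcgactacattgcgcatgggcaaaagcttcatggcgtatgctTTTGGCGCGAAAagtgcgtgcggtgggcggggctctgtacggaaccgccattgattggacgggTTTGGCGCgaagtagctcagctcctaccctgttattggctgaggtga
Mcm5: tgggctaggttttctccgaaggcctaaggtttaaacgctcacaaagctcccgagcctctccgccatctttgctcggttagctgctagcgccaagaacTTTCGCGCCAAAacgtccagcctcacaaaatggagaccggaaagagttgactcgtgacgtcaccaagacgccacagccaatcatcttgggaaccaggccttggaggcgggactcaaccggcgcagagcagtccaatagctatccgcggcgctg
Pola1: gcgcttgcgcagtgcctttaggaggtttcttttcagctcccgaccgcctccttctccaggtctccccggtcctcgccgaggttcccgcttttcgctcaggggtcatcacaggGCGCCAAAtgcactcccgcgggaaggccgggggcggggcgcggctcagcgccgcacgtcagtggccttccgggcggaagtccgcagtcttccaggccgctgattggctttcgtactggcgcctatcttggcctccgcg
Mcm2: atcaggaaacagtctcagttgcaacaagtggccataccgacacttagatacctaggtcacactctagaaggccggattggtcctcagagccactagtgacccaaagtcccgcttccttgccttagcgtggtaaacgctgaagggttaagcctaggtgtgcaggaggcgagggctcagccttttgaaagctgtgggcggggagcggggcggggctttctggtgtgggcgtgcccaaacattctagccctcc

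In *Mcm5* the words overlap on the 2 strands, 153 and 149 bases before the start, and in *Mcm6* an overlapping pair lies 110 and 106 bases and another word 47 bases before it. The log2 fold changes of *Mcm6* and *Mcm5* in crypts, -0.43 and -0.47, stood beside -0.31 for *Mcm2*, and KO and WT overlapped for all of them. In KO-CAG organoids *Mcm6* fell by 0.43 on the log2 scale, whereas *Mcm5* and *Mcm2* were at -0.17 and -0.09 and did not pass, and differences between these genes were not tested.

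Other genes of DNA replication were examined by list. Of 53 genes in lists for origin licensing and firing, fork accessory factors, nucleotide supply and chromatin assembly, 52 were tested in crypts. Of these, 49 had a lower fitted level (median -0.25), against 51.1% of all genes, and 1 fell, where 2.66% of all genes did. It was *Tk1*, a thymidine kinase that salvages thymidine for DNA synthesis (from 92.1 ± 4.82 to 61.0 ± 10.6 CPM, SD, n = 4 each; log2 fold change -0.59 ± 0.13, adjusted p = 0.0425 by edgeR). Like the calls of the fork genes in crypts, this call depended on the set of libraries. In KO-IEC organoids 49 of 53 had a lower fitted level (median -0.45), against 51.2% of all genes. By edgeR 0 passed, where 0.00717% of all genes fell, and 0 were lower at an unadjusted p under 0.05, where 2.07% of all genes were. In KO-CAG organoids 43 of 53 had a lower fitted level (median -0.22), against 49.9% of all genes, and 11 fell and 0 rose, where 13.4% and 18.1% of all genes did.

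The 11 genes that fell in KO-CAG organoids included 3 of 10 for nucleotide supply. *Tk1* fell from 95.1 ± 2.16 to 60.9 ± 8.89 CPM (log2 fold change -0.63 ± 0.11, adjusted p = 0.00149 by edgeR), *Shmt1*, a folate enzyme, by 0.57 and *Dctd*, a deaminase that feeds thymidylate synthesis, by 0.63 on the log2 scale. Of 17 licensing and firing genes 3 fell, a share near the 13.4% of all genes, namely *Orc3* and *Orc5* of the origin recognition complex and the firing factor *Ticrr* (log2 fold changes of -0.42, -0.44 and -0.41). Of 15 fork accessory genes 4 fell, among them *Dscc1*, a subunit of an alternative clamp loader (-0.78), and *Top2a*, a topoisomerase (-0.47), with *Timeless* (-0.38) and *Wdhd1* (-0.29). The values of *Top2a* and *Ticrr* depended on single libraries, at -0.26 and -0.25 without KO replicate 1, where *Ticrr* no longer passed (adjusted p = 0.141 by edgeR), and at -0.76 and -0.65 without KO replicate 2. *Dnmt1*, which copies DNA methylation behind the fork, was the 1 of 11 chromatin assembly genes to fall (-0.30), also near that share.

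Genes of G2 and mitosis mark dividing cells at a later stage of the cycle. Of 15 such genes, 4 fell in crypts (*Ccnb2*, *Cdc20*, *Birc5* and *Plk1*, with log2 fold changes from -0.74 to -0.53), where 2.66% of all genes fell, and 7 fell in KO-CAG organoids, where 13.4% did, led by *Cenpf* (-0.59). The 4 calls in crypts rested on the full set of libraries and on a fit without covariates, as those of the fork genes did. *Mki67* was at 414, 561, 559 and 464 CPM in WT crypts and 625, 499, 374 and 364 CPM in KO crypts. The groups overlapped, with a log2 fold change of -0.10 ± 0.19 (adjusted p = 0.741 by edgeR). In KO-CAG organoids it fell from 503 and 457 to 287 and 354 CPM (-0.58 ± 0.11, adjusted p = 0.00355 by edgeR). The list medians of the KO-IEC organoid KO replicates 1 and 2 were 0.13 and -1.27.

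Of 10 tested DNA polymerase genes that act outside the fork, 2 fell and 1 rose in KO-CAG organoids, near the 13.4% and 18.1% of all genes. *Polk*, a translesion polymerase, rose from 17.98 ± 0.0435 to 32.8 ± 1.76 CPM (SD, n = 2 each; log2 fold change 0.87 ± 0.13, adjusted p = 0.000777 by edgeR), while *Poli* and *Rev3l*, also of translesion synthesis, fell by 0.77 and 0.39 on the log2 scale. The median of the 10 tested genes of this list was 0.07. In crypts 0 of 10 passed. Of 8 genes for copying mitochondrial DNA, 4 fell in KO-CAG organoids, where 13.4% of all genes fell, namely *Tfam*, *Mgme1*, *Twnk* and *Top1mt* (log2 fold changes from -0.70 to -0.44), and 2 of them, *Top1mt* (-0.55) and *Twnk* (-0.39), fell in crypts, where 2.66% of all genes did. Both crypt calls depended on the set of libraries, as those of the fork genes did. These mitochondrial genes were low in both KO-CAG KO libraries, at list medians of -0.56 and -0.36, where the fork genes stood at -0.39 and -0.06.

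Of 13 genes of the E2F and Rb families, which control S-phase transcription, 4 fell in KO-CAG organoids, where 13.4% of all genes fell. *Tfdp2*, a partner of E2F proteins, fell by 0.67 and *E2f8*, a repressive E2F, by 0.66 on the log2 scale, and *Rbl1* and *E2f2* by 0.32 and 0.36. In crypts 1 of 13 rose, where 4.3% of all genes did, and 0 fell. It was *Rb1*, the retinoblastoma repressor, which went from 47.9 ± 7.96 to 71.4 ± 11.5 CPM (SD, n = 4 each). The log2 fold change was 0.57 ± 0.15, with an adjusted p of 0.0494 by edgeR, just under the threshold of 0.05. Leaving out 1 library put the log2 fold change between 0.48 and 0.72, and whether *Rb1* still passed in those fits is not given here.

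**Figure D5:**
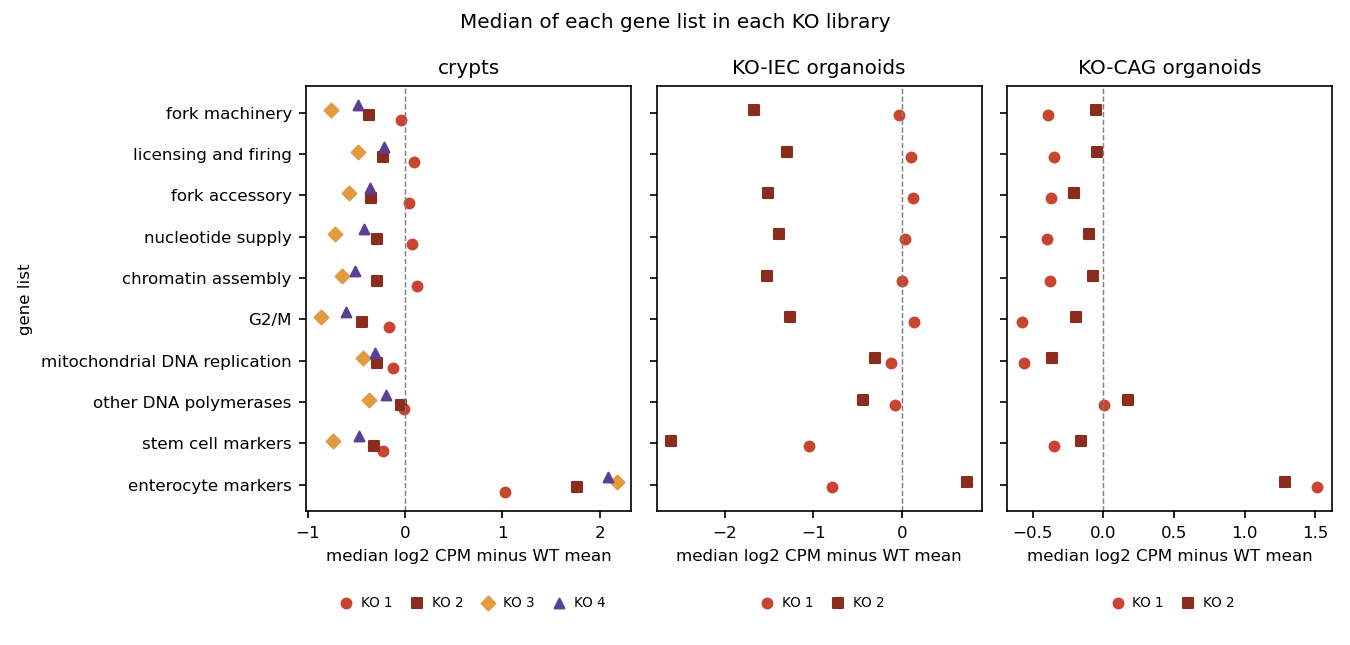
Median log2 CPM minus the WT mean of the experiment for each gene list (vertical axis) in each KO library (points), with a separate scale for each experiment. The lists of replication, nucleotide supply, chromatin assembly and G2/M are low in the same libraries as the fork genes, and enterocyte markers are above the WT mean in all KO libraries but KO replicate 1 of the KO-IEC organoids (-0.79), although KO replicate 1 of the crypts (1.03) is below WT replicate 4 (1.17).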

How the data were processed

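RNA from 8 crypt and 8 organoid samples was sequenced by the authors through Novogene. The deposited tables hold raw counts per gene with gene lengths (in bases, deposited by the authors beside the counts). The submitters' processing notes name HISAT2 2.0.5 and featureCounts 1.5.0-p3, while the genome build, annotation and strand setting are not given in the sources used here. All columns of counts were mapped to samples.

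KO was compared with WT within each table with edgeR 4.0.16 in R 4.3.3 (filterByExpr, TMM, quasi-likelihood F-test, Benjamini-Hochberg adjustment over all genes tested, threshold 0.05), and the SE is the size of the log2 fold change divided by the root of F. DESeq2 1.42.0, other scalings and filters, a replicate block, covariates, 1 fit over 16 libraries and leaving out each library were alternatives. A floor is 3 counts and covers counting error only. Log2 CPM used a prior count of 2. The steps were tested on simulated data.

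The genes, lists and tests were chosen with earlier results of these data known. Values in every library were given for genes with an adjusted p under 0.05 (otherwise the 3 with the smallest p), and for *Pcna* and *Mki67*, with up to 4 genes from each other list, while *Gins1* in KO-IEC organoids was added after its values were seen, as were the *Xist* check and the differences between same-numbered organoid libraries. TPM was computed from the counts and gene lengths.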

Additional observations from a re-analysis of the deposited data

Results flagged for a closer look

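*Rfc2* in WT crypts is listed because 1 of its 4 values stood far from the rest. WT replicate 4 was at 63.5 CPM, against 80.8, 83.6 and 83.6 CPM in the others, a gap of 0.858 of the group's range. This was 1 of 18 groups tested, and chance alone sets apart about 1 group in 20.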

How the results depend on the processing

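The crypt count of 6 was 13 with no filter on low counts or by DESeq2, 2 in 1 fit over all 16 libraries, and 0 with the replicate block, with the mitochondrial RNA class, with the enterocyte covariate or with a 2-fold minimum as well. Leaving out 1 library gave 0 to 22 calls and medians of -0.58 to -0.30, and the enterocyte covariate moved the median to -0.029. In KO-IEC organoids leaving out 1 library gave 0 to 36 calls and medians of -1.69 to -0.028. In KO-CAG organoids there were 0 calls in 1 fit over 16 libraries or with a 2-fold minimum, and leaving out 1 library gave 6 to 26 calls and medians of -0.40 to -0.074. Over all genes, 357 fell in crypts, against 531 with no filter, 893 by DESeq2 and 586 in 1 fit over 16 libraries. With the block or with either covariate, 1 gene fell in crypts. In KO-CAG organoids 1823 fell, against 171 in 1 fit over 16 libraries and 966 under another of the alternatives. In KO-IEC organoids 1 gene fell, against 21 by DESeq2, 15 in 1 fit over 16 libraries and 116 with no filter. The causes were not tested.

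Among the genes whose own values were followed under the alternatives, direction turned for *Pcna* and *Mki67* where they were near 0 and did not pass. The other fork genes of the KO-IEC organoids were not followed singly when KO replicate 2 was left out. KO replicate 1 alone was above the WT mean for *Mcm4* and *Fen1* there, by 0.17 and 0.27 on the log2 scale. It was lower than WT replicate 1 for 17 of 36 genes. *Pcna* in crypts was 0.0074 with the mitochondrial class and 0.17 with the enterocyte covariate, and *Mki67* 0.017 and 0.34. Leaving out 1 library put *Mki67* between -0.28 and 0.0082 in crypts (0.0014 without KO replicate 3) and between -0.84 and 0.34 in KO-IEC organoids. *Pcna* in KO-CAG organoids was -0.0030 with DESeq2 size factors, -0.027 by library size, -0.0023 with 10 counts in every library, -0.0058 by DESeq2, -0.00041 with the replicate block, -0.0051 in 1 fit over 16 libraries, and -0.095 to 0.072 without 1 library.

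Same-numbered libraries, as deviations from their group means, correlated at -0.04, 0.19, -0.40 and 0.43 in crypts. The value was 0.34 in KO-IEC and 0.07 in KO-CAG organoids. Mitochondrial RNA and cell markers also differ between libraries and enter these values, so they cannot decide whether the numbers pair samples. No label says that they do. The block gave 0, 0 and 12 calls in the 3 experiments, where it called 1, 1 and 2175 of all genes lower, and in KO-IEC organoids, where the number also separates libraries with and without *Xist*, a median of -0.81. Of the other comparisons of counts and medians 99 stayed within their limits, and of those on single genes 523 kept direction and side of the threshold, 217 lost and 5 gained a call.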
